A study of Mus musculus with 2 samples.

Results

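The genes described here encode proteins that bind RNA in the nucleus and take part in splicing. They were taken by symbol from the platform annotation of an Illumina mouse bead array, as every gene whose only symbol begins with Hnrnp, Snrp, Srsf, Sfrs, Sf3a, Sf3b or Rbm. The prefixes gave 90 of 19057 annotated genes, with 210 probes, namely 20 Hnrnp, 9 Snrp, 10 Srsf, 9 Sf3a or Sf3b and 42 Rbm genes, while no symbol began with Sfrs. The rule itself uses no measured value, but it was chosen with earlier results of these data known. RNA came from the hippocampus of male ICR mice, an outbred stock, and was hybridised to 2 arrays. The label gives an age of 4 weeks, which cannot be the age at sampling since dosing lasted 90 days. The CeCl3 array carried RNA of animals dosed daily by gavage with cerium chloride for that time, and the control array that of animals given purified water. The label of the dosed sample names 0.5, 1 and 2 mg per kg of body weight together, so which dose or mixture of doses was hybridised is unknown, as is the number of mice behind each array (each of the study's 4 groups held 75).

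Introns are removed from pre-mRNA by the spliceosome, which is built from small nuclear RNAs and their proteins. The Sm proteins (most of the Snrp genes) form a ring around these RNAs, and the SF3A and SF3B complexes sit in the U2 particle that recognises the branch point. SR proteins (Srsf genes) mostly promote the use of exons, heterogeneous nuclear ribonucleoproteins (hnRNPs) often repress them, and the Rbm genes are a mixed family named for an RNA recognition motif. Neurons splice many transcripts in their own way, and several of these proteins also carry RNA in axons and dendrites.

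With 1 array per group no difference has a replicate check, no test across samples was possible and no p-value is given. Values are log2 signals after background correction and normalization, a difference is the CeCl3 array minus the control array, and the bead interval in parentheses is a 95% interval from the spread between the beads of a probe, so it covers bead error alone. The arrays lay on separate BeadChips, so chip and group cannot be told apart. A probe was called detected at a detection p-value under 0.01, which held for 17433 probes on the CeCl3 and 16434 on the control array of 45281. Both samples carry the label male, yet the control array detected all 4 probes of Xist, the RNA of the inactive X, and the CeCl3 array detected 0. The Y-linked Eif2s3y was detected by 1 of its 2 probes with CeCl3, at a dim 6.06, and by 0 in the control. No probe of the Y-linked Uty, Kdm5d and Usp9y was detected on either array. Of 6 X-linked genes in the set, 3 were detected, Rbm10 with a difference of -0.52 (-1.02 to -0.03), Rbmx with 0.12 (-0.25 to 0.50) and Rbm41 on 1 array alone, and the part of sex in any result was not tested. Among tissue markers, the hippocampal neuron genes Prox1 (0.06), Wfs1 (0.00) and Zbtb20 (0.40) were detected on both arrays, while Neurod6 and Calb1 were not detected. Of 5 neuronal markers 3 were detected, with differences of -0.01 to 0.22, and the 4 astrocyte markers lay between -0.33 and 0.14. All 3 oligodendrocyte markers with a probe were lower on the CeCl3 array (-0.25 to -0.70), and all 3 neutrophil markers were higher, S100a8 by 2.44 (2.12 to 2.77), and S100a9 and Ltf, which passed detection with CeCl3 alone, at least 2.49-fold and 3.83-fold. Their summed corrected signal was 1968 against 350.0, the latter including the undetected probes, and the part of these markers in the results was not tested. In such bulk RNA, fewer cells of a type and less RNA per cell cannot be told apart.

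Most splicing and nuclear RNA-binding genes differed little between the arrays. Of the 90 genes, 69 had a detected probe and 64 had one detected on both arrays as the brightest, and each gene stands below as its brightest detected probe. Of these 64, 45 (70.3%) lay within 1.2-fold, against 67.2% of the 9473 named genes detected on both arrays. That limit was chosen after the values were seen, and under the limit used first, 5/4-fold, the count was 48 (75.0%) against 76.1%, so on this measure the set stands on neither side of the background. The median difference of the 69 genes was -0.02, against -0.04 for all 10416 detected named genes. Of the 69 genes 32 lay above and 37 below 0, while of all detected named genes 4592 lay above and 5810 below. A measured difference of 2-fold or more was found for 5 of the 69 genes (7.25%), against 4.72% of all detected named genes. They were 3 higher, against a background of 2.77%, and 2 lower, against 1.95%. The 3 higher genes were not detected in the control, and their bounds (1.94-fold for Rbm6, 1.06-fold for Rbm25 and none above 1 for Rbm41) do not reach 2-fold. Of the 5, only Rbm8a and Rbm15, both lower on the CeCl3 array, were detected on both arrays. They make 3.13% of the 64 genes, against 0.982% of named genes detected on both arrays, with either direction counted. At 1.5-fold, 9 genes were higher (13.0%, against 6.61% of all) and 3 lower (4.35%, against 6.12%). Restricted to genes detected on both arrays these counts were 5 higher (7.81%, against 2.99%) and 2 lower (3.13%, against 3.6%). Bead intervals lay wholly above 0 for 8 of the 64 genes (12.5%, against 8.53%) and wholly below 0 for 8 (12.5%, against 13.9%). At 1.5-fold and by bead interval, the members' counts therefore stand close to the background on the lower side and somewhat above it on the higher side. Of the 5 genes at least 1.5-fold higher and detected on both arrays, 4 are hnRNP genes. In the series matrix, which is not scaled between the arrays and in which the median of all genes is 0.18, the split at 1.5-fold was 13 higher and 2 lower for these genes and 1463 higher and 253 lower for all genes, against 688 and 637 in the normalized values.

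**Figure D1:**
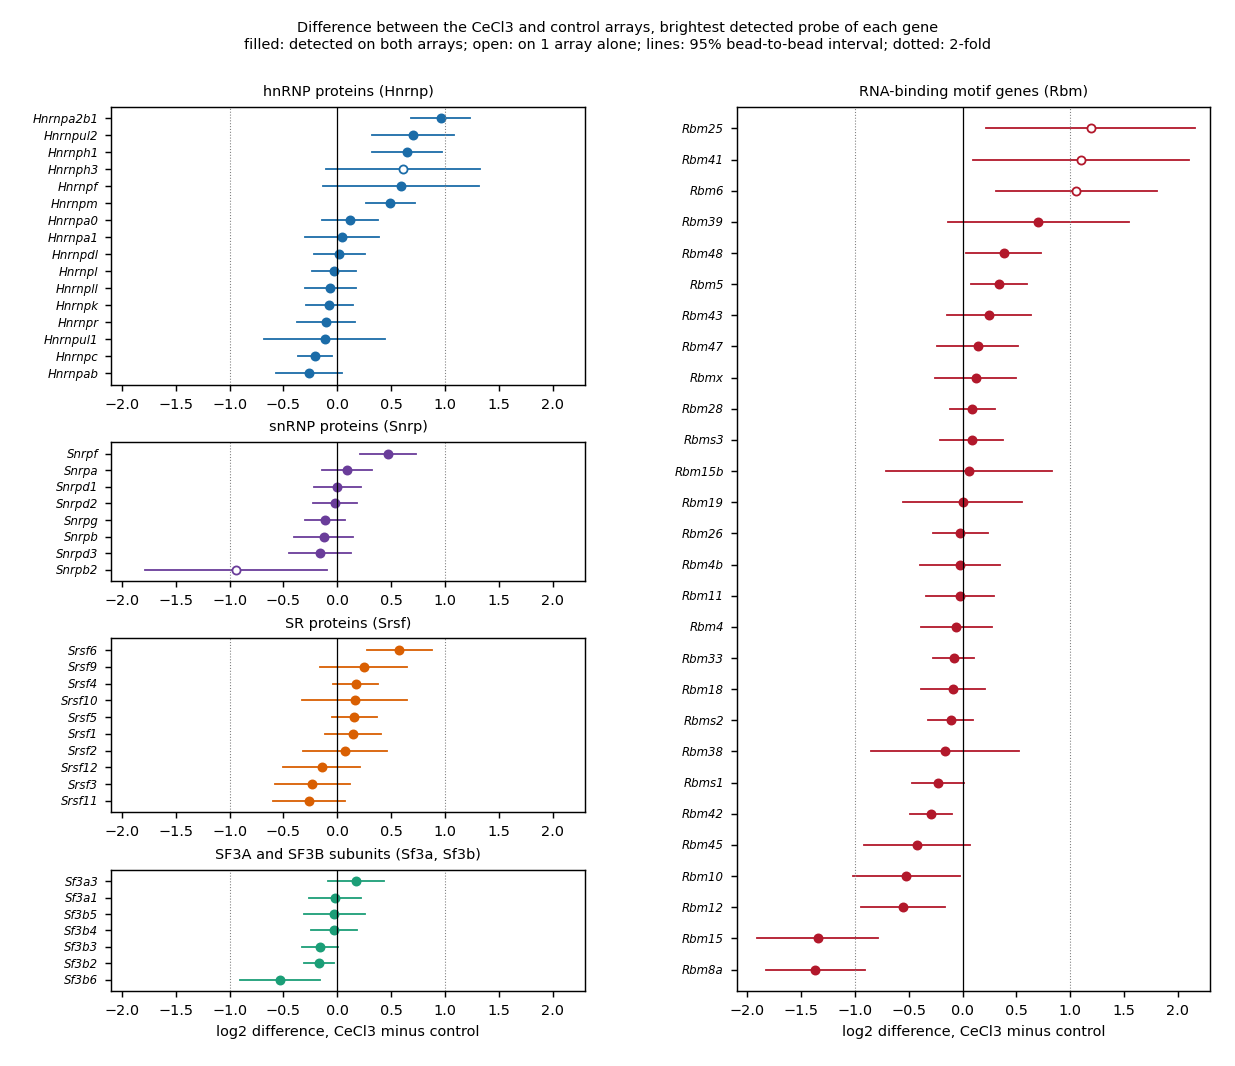
Difference between the CeCl3 and the control array (x axis, log2) for the 69 detected genes, by prefix. Points are the brightest detected probe of a gene, filled where it was detected on both arrays and open where on 1 alone, lines are 95% bead intervals and dotted lines mark 2-fold. Most points lie near 0, with Rbm8a (-1.37) and Rbm15 (-1.35) lowest among filled points and Hnrnpa2b1 (0.96) highest.

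Among hnRNP genes a few stood higher on the CeCl3 array while most of the abundant ones lay near 0. Of 16 detected genes 9 were above and 7 below 0, with a median of 0.03, and 4 of the 15 detected on both arrays were at least 1.5-fold higher (26.7%, against 2.99% of all) and 0 were 1.5-fold lower (against 3.6%). Of the 4 (Hnrnpa2b1, Hnrnpul2, Hnrnph1 and Hnrnpf), Hnrnpf has a bead interval that holds 0. Of the 15 genes, 9 lay within 1.2-fold (60%, against 67.2% of named genes detected on both arrays). Hnrnpa2b1, which binds RNA in the nucleus and carries RNA granules into dendrites, had a log2 signal of 10.51 on the CeCl3 and 9.55 on the control array, a difference of 0.96 (0.69 to 1.23). This rests on 1 of its 5 probes, since the other 4 were detected on neither array. Hnrnph1, which binds runs of guanine and regulates exon choice, had a signal of 11.39 on the CeCl3 and 10.74 on the control array, a difference of 0.65 (0.32 to 0.98).

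Hnrnph1 had 5 detected probes, and of the others 3 were also higher on the CeCl3 array, by 0.94 (0.62 to 1.26), 0.48 (0.21 to 0.74) and 0.32 (-0.33 to 0.98), while 1 lay at -0.13 (-0.54 to 0.28). Its close relative Hnrnpf had a dim probe with a signal of 7.64 against 7.05 (difference 0.59, -0.13 to 1.32), and its other probe was not detected. Hnrnph3, of the same subfamily, passed detection with CeCl3 alone (6.39 against 5.78) and was at least 1.19-fold higher. Both intervals held 0, so within this subfamily Hnrnph1 alone was separated from 0 by its bead error.

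Hnrnpul2, a relative of the nuclear scaffold protein Hnrnpu, had a signal of 9.35 on the CeCl3 and 8.64 on the control array (0.70, 0.33 to 1.08), and its other 2 probes were not detected. Hnrnpm, a regulator of alternative exons, had a signal of 11.78 against 11.29 (0.49, 0.26 to 0.72) on its brightest probe, but 0.14 (-0.18 to 0.47) and -0.05 (-0.40 to 0.30) on the others. Hnrnpdl, a paralog of Hnrnpd, showed the reverse: its brightest probe lay at 0.02 (-0.22 to 0.25) and the others at 0.51 (0.21 to 0.81) and 0.50 (-0.04 to 1.04). For both genes the size of the difference thus depended on the probe.

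The lower hnRNP genes differed by little. Hnrnpc, which binds uridine tracts in introns, had a signal of 13.52 against 13.72 (-0.20, -0.36 to -0.05), with 0.14 (-0.15 to 0.42) on its second probe. Hnrnpab, an RNA-binding protein of the A/B type, lay at -0.26 (-0.57 to 0.04), Hnrnpul1 at -0.12 (-0.68 to 0.44) and Hnrnpr at -0.11 (-0.38 to 0.17), all with intervals that held 0. Hnrnpa1, the relative of Hnrnpa2b1 that represses exons, lay at 0.04 (-0.30 to 0.39) on the brightest of 3 probes and at 0.37 (-0.22 to 0.96) and -0.41 (-0.81 to -0.01) on the others. Hnrnpk, which binds cytosine-rich RNA, lay at -0.07 (-0.29 to 0.15), Hnrnpl, which binds CA repeats, at -0.03 (-0.23 to 0.17), Hnrnpll at -0.07 (-0.30 to 0.17) and Hnrnpa0 at 0.12 (-0.14 to 0.37). Hnrnpa3, Hnrnpd, Hnrnph2 and Hnrnpu had 8 probes in all and none was detected.

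The Snrp genes, which encode proteins of the small nuclear ribonucleoproteins themselves, were close to equal on the arrays. Of 8 detected genes 3 lay above and 5 below 0, with a median of -0.07. Within 1.2-fold lay 6 of the 7 detected on both arrays (85.7%, against 67.2% of such named genes). The median log2 control signal was 10.73 for detected Snrp, 10.27 for Srsf and 11.04 for Sf3a and Sf3b genes. It was 10.50 for Hnrnp and 8.90 for Rbm genes, against 8.97 for all detected named genes. The part of signal level in the 1.2-fold shares of these groups was not tested. Of the Sm ring, Snrpd2 had signals of 12.35 and 12.38 (difference -0.02, -0.22 to 0.18), Snrpd3 of 10.24 and 10.40 (-0.16, -0.45 to 0.13), Snrpb of 11.24 and 11.36 (-0.13, -0.40 to 0.15) and Snrpg of 10.80 and 10.91 (-0.12, -0.30 to 0.07), in each case CeCl3 first. The exception in the ring was Snrpf, with 10.19 against 9.72 (0.47, 0.22 to 0.73) on its only probe. Snrpd1 was at 0.00 (-0.22 to 0.22) by its brightest probe, while a second one gave 0.40 (0.13 to 0.67), and Snrpe was not detected.

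Snrpa and Snrpb2 encode related proteins that bind a loop of the U1 and of the U2 small nuclear RNA. Snrpa had signals of 10.65 and 10.56 (0.09, -0.14 to 0.32) on its brightest probe and of 8.95 and 8.08 on its second (0.87, 0.37 to 1.37), so its probes shared a direction but not a size. Snrpb2 passed detection in the control alone, with a signal of 6.31 against 5.37, a gap of at least 1.35-fold. It was the only gene of the set represented by a probe detected in the control alone, while 4 (5.80%) were so with CeCl3, against 3.15% and 5.90% of all detected named genes.

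All 10 SR protein genes were detected on both arrays, and none differed by 1.5-fold on its brightest probe. With 7 above and 3 below 0 their median of 0.15 was the highest of the prefix groups. Within 1.2-fold lay 8 of the 10 (80%, against 67.2% of named genes detected on both arrays), and within 5/4-fold 9 (90%, against 76.1%). Srsf6, which promotes the inclusion of many alternative exons, was the largest at 10.68 on the CeCl3 and 10.10 on the control array (0.58, 0.27 to 0.88), and its probe from a cDNA clone also stood higher, at 0.84 (0.15 to 1.53). Srsf1, the general splicing activator SF2/ASF, had 12.10 against 11.96 (0.14, -0.11 to 0.40) and 0.33 (0.10 to 0.56) on its second probe. Srsf5 had 11.94 against 11.78 (0.16, -0.05 to 0.37) and 0.46 (0.24 to 0.68) on its second probe. For these 3 genes every detected probe was on the higher side.

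Srsf4 (0.17, -0.04 to 0.38) and Srsf9 (0.25, -0.16 to 0.65) each had 1 detected probe with an interval that held 0, as did Srsf12 at -0.14 (-0.50 to 0.22). Srsf3, the smallest SR protein, was lower on both probes, at -0.23 (-0.58 to 0.12) and -0.46 (-0.79 to -0.14). Srsf2, which was near 0 on its brightest probe (12.28 against 12.21; 0.07, -0.31 to 0.46), was lower on the others, at -0.63 (-0.96 to -0.30) and -0.40 (-0.99 to 0.18). Probes of Srsf10, a repressor activated by dephosphorylation, went both ways, at 0.16 (-0.32 to 0.64), 0.43 (-0.33 to 1.19) and -0.51 (-1.04 to 0.03), and a further probe passed detection with CeCl3 alone (at least 1.16-fold higher).

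Srsf11 had probes of both sources that gave different values. Its RefSeq probes had signals of 9.24 and 9.51 (-0.26, -0.60 to 0.07) and of 9.22 and 9.20 (0.03, -0.26 to 0.31). A probe designed on a cDNA clone of the same gene had a deposited intensity of 497 on the CeCl3 and 214 on the control array, a log2 difference of 1.17 (0.86 to 1.48). A second clone probe passed detection with CeCl3 alone, at 6.05 against 5.28, with no bound above 1. SR protein genes are known to make alternative transcripts with retained introns or extra exons, but the labels and files do not say which form these probes bind.

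Subunits of SF3A and SF3B, the U2 particle proteins that hold the branch point, differed little between the arrays. Of 7 detected genes 6 lay below 0, as did 5810 of all 10416, and their median was only -0.03 against -0.04 for all genes. Within 1.2-fold lay 6 of the 7 (85.7%, against 67.2% of named genes detected on both arrays). In SF3A, Sf3a1 had 10.79 on the CeCl3 and 10.81 on the control array (-0.02, -0.26 to 0.22) and Sf3a3 had 11.29 against 11.12 (0.17, -0.09 to 0.43). In SF3B, Sf3b4 had 11.27 against 11.30 (-0.03, -0.25 to 0.19), Sf3b5 10.94 against 10.96 (-0.03, -0.31 to 0.26), Sf3b3 10.88 against 11.04 (-0.16, -0.33 to 0.01) and Sf3b2 12.84 against 13.01 (-0.17, -0.31 to -0.03). The exception was Sf3b6, also of SF3B, with 7.16 against 7.69 (-0.54, -0.91 to -0.16) on its brightest probe. Its clone probe pointed the other way, at 0.43 (-0.20 to 1.06), and 2 more probes were not detected. The probes of Sf3a2 and of Sf3b1, the large subunit, were not detected on either array.

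The promoters of 6 of these subunits hold the same short motif. Among RefSeq promoter windows (assembly GRCm38.p6, from 250 bases before to 50 after a transcript start), the core of the ETS factor motif, CCGGAAG on either strand, was present in 7 of the 8 windows of 7 SF3A and SF3B genes with an entry (87.5%), where the 2 windows of Sf3b2 overlap and share the stretch. It was found in 5 of 13 Srsf, 3 of 8 Snrp, 4 of 27 Hnrnp and 6 of 44 Rbm windows, in 25 of 100 windows of the whole set, in 15.8% of the windows of detected named genes and in 8.86% of all 32851 windows. Of the 7 genes Sf3b1 was without it, and Sf3b4 and Sf3b5 have no entry. The ETS core was 1 of 5 motifs searched in each of the 5 prefix groups. It is shown here for the group where its share was highest, and no test of this share was made. The stretches around the motif are shown for the 6 genes that hold it. They run 5′ to 3′ along the gene's strand, with the motif in capitals, as CCGGAAG or its reverse CTTCCGG.
Sf3a1 (chr11:4160307-4160393, plus strand): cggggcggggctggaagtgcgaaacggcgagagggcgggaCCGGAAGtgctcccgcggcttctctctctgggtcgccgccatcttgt
Sf3a2 (chr10:80798619-80798705, plus strand): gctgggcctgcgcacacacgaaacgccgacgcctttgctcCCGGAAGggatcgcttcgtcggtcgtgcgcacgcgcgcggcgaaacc
Sf3a3 (chr4:124714731-124714817, plus strand): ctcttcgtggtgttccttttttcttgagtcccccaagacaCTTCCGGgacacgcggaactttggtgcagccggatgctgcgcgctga
Sf3b2 (chr19:5295422-5295508, minus strand): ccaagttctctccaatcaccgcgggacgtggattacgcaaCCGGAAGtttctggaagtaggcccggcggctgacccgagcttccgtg
Sf3b3 (chr8:110846986-110847053, minus strand): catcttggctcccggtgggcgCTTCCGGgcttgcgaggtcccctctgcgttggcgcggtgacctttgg
Sf3b6 (chr12:4817498-4817584, plus strand): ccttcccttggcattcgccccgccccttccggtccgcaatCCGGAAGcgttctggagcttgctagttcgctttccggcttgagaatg
The motif began 7 bases before the annotated start in Sf3a1, 11 or 13 bases before the 2 starts of Sf3b2, and 70 to 90 bases before it in Sf3a2, Sf3a3 and Sf3b6. In Sf3b3 it lay 229 bases before the start. Sf3b6 holds a second copy in the opposite direction, which is part of the stretch above in lower case. A match of letters is a description and does not show that a factor binds there.

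The Rbm genes held the largest differences on the lower side of the set. Of 28 detected genes 12 were above and 16 below 0 with a median of -0.02, and 2 were at least 2-fold lower. Of the 25 detected on both arrays, 16 lay within 1.2-fold (64%, against 67.2% of such named genes). The 3 with a measured difference over 2-fold on the higher side (Rbm6, Rbm25 and Rbm41) rest on probes undetected in the control, and their bounds are smaller. Rbm8a encodes Y14, which forms the core of the exon junction complex with Magoh and Eif4a3. Its signal was 7.01 on the CeCl3 and 8.38 on the control array, a difference of -1.37 (-1.83 to -0.91). Its second probe gave 6.34 against 8.94, a difference of -2.60 (-3.08 to -2.11). Both probes were designed on the same RefSeq transcript and were detected on both arrays, and they agree in direction though not in size. The second was dim on the CeCl3 array, near the lowest detected signal there (5.87).

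The partners of Rbm8a were looked up after its values were seen. Of the core, Casc3 had a signal of 12.09 on the CeCl3 and 11.57 on the control array (0.53, 0.30 to 0.76), and Eif4a3 had 10.61 and 10.66 (-0.04, -0.32 to 0.23). Rnps1, a splicing activator that joins the complex, had 11.30 and 11.38 (-0.08, -0.30 to 0.15). Acin1, a peripheral factor, passed detection with CeCl3 alone and had no bound above 1. Pnn and Sap18 were not detected, and Magoh and Magohb have no probe named here. None of the 3 partners measured on both arrays was lower beyond its bead error.

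Rbm15, a subunit of the complex that writes N6-methyladenosine on RNA, had a signal of 5.94 on the CeCl3 and 7.29 on the control array, a difference of -1.35 (-1.91 to -0.79). Its other probe, also dim, lay at 6.27 against 6.52 (-0.24, -1.04 to 0.55), so only the first was separated from 0 by its bead error. Its paralog Rbm15b lay at 0.06 (-0.71 to 0.83). Rbm12 had 8.25 against 8.81 (-0.55, -0.95 to -0.16) on its brightest probe, 0.14 (-0.31 to 0.60) and -0.07 (-0.51 to 0.37) on 2 others, and a dim probe that passed detection with CeCl3 alone at 6.35 against 4.80 (at least 1.16-fold higher). Over probes detected on both arrays the gap between probes was wider for Srsf11 (1.44) and Rbm8a (1.23) than for Rbm12.

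Rbm5, Rbm6 and Rbm10 are related regulators of exon skipping and differed in direction. Rbm10 was lower on both detected probes, at -0.52 (-1.02 to -0.03) and -0.36 (-0.93 to 0.21). Rbm5 had 12.22 on the CeCl3 and 11.88 on the control array (0.34, 0.08 to 0.60), with 0.04 (-0.27 to 0.36) on a second RefSeq probe. Rbm6 was higher on the 2 detected of its 6 probes. The brighter passed detection with CeCl3 alone at 7.09 against 6.04, at least 1.94-fold higher, and the clone probe lay at 0.69 (0.12 to 1.26). Its other probes were detected on neither array and ranged from -1.02 to 0.02. No other gene represented by a probe detected on 1 array alone had a bound of 1.5-fold or more.

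Rbm25, which helps choose 5′ splice sites, passed detection with CeCl3 alone (6.23 against 5.04, at least 1.06-fold higher). Rbm41 likewise passed detection with CeCl3 alone, at 6.12 against 5.03, with no bound above 1. Rbm48, which is known from maize and human cells to act on minor introns, was higher on both RefSeq probes, with 10.31 against 9.93 (0.38, 0.03 to 0.73) and 0.52 (0.08 to 0.96). Rbm39, an SR-like partner of U2AF, had 7.27 against 6.57 on a dim probe (0.70, -0.14 to 1.54). Of these 4 genes only Rbm48 passed detection on both arrays and had an interval that left out 0.

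The other Rbm genes lay closer to 0. Rbm42, an hnRNP K partner, had 10.90 against 11.19 (-0.29, -0.48 to -0.10) but 0.01 (-0.34 to 0.37) on its second probe, and Rbm43 lay at 0.24 (-0.15 to 0.63). Rbms1, a DNA- and RNA-binding protein, was lower on both probes, at -0.23 (-0.47 to 0.01) and -0.57 (-1.07 to -0.06), as was Rbms2 on all 3 detected probes (-0.03 to -0.66). Rbm4, a regulator of alternative splicing, and its paralog Rbm4b lay at -0.06 (-0.38 to 0.27) and -0.02 (-0.40 to 0.35). Rbm26 lay at -0.02 (-0.28 to 0.24) on its brightest probe, at 0.44 (0.09 to 0.79) on another, and a further probe that passed detection with CeCl3 alone was at least 1.61-fold higher. The remaining 9 detected genes (Rbm11, Rbm18, Rbm19, Rbm28, Rbm33, Rbm38, Rbm45, Rbm47 and Rbms3) ranged from -0.42 for Rbm45 to 0.14 for Rbm47, with bead intervals that held 0. The 14 Rbm genes without a detected probe include Rbm3, the cold-shock protein with a part in synapse repair in mice, Rbm14, Rbm22 and the Y-linked Rbm31y.

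Promoters of 3 genes are shown as RefSeq gives them on assembly GRCm38.p6, Hnrnpa2b1 and Srsf6 because they were higher on the CeCl3 array and Rbm15 because it was lower. Capitals mark 2 of the motifs searched on both strands. They are CCAAT, whose reverse reads ATTGG, and the SP and KLF factor core GGGCGG, whose reverse reads CCGCCC. None of the 3 windows holds the ETS core, the TATA letters TATAAA or the YY1 letters AAGATGGC. Rbm8a has no entry.
Hnrnpa2b1 (chr6:51469845-51470144, minus strand): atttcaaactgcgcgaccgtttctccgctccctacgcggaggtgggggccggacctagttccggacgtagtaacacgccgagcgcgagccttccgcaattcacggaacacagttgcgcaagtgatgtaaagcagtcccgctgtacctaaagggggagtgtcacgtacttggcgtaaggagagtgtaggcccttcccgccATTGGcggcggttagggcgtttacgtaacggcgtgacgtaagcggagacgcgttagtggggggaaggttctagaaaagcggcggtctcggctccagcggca
Srsf6 (chr2:162931258-162931557, plus strand): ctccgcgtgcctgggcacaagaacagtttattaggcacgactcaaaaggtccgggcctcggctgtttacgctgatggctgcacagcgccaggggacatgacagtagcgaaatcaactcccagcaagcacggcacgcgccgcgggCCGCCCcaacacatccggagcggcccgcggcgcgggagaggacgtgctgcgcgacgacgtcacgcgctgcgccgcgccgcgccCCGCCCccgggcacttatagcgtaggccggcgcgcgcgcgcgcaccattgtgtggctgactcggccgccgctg
Rbm15 (chr3:107333240-107333539, minus strand): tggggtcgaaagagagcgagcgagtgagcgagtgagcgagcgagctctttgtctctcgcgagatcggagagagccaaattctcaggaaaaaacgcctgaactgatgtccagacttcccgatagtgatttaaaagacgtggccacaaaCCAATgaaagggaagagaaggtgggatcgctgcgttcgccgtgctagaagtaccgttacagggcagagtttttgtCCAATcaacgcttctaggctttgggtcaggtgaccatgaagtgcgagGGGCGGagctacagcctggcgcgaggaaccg
Hnrnpa2b1 has 2 overlapping windows, of which 1 is printed, and each holds CCAAT alone. The window of Srsf6 holds GGGCGG alone, in 2 copies, and that of Rbm15 holds both motifs. Hnrnph1, also higher on the CeCl3 array and not printed, has 5 windows, all with GGGCGG and 3 of them with CCAAT too. GGGCGG was present in 12 of 13 Srsf windows (92.3%), 21 of 27 Hnrnp windows (77.8%), 4 of 8 Snrp and 4 of 8 Sf3a and Sf3b windows, and 19 of 44 Rbm windows (43.2%). This makes 60 of 100 windows of the set, against 60.9% of the windows of detected named genes and 35.7% of all windows. CCAAT was present in 17 of 27 Hnrnp windows (63.0%), 4 of 13 Srsf windows (30.8%), 3 of 8 Snrp and 3 of 8 Sf3a and Sf3b windows, 17 of 44 Rbm windows (38.6%) and 44 of 100 windows of the set, against 37.2% for detected named genes and 37.4% of all windows.

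**Figure D2:**
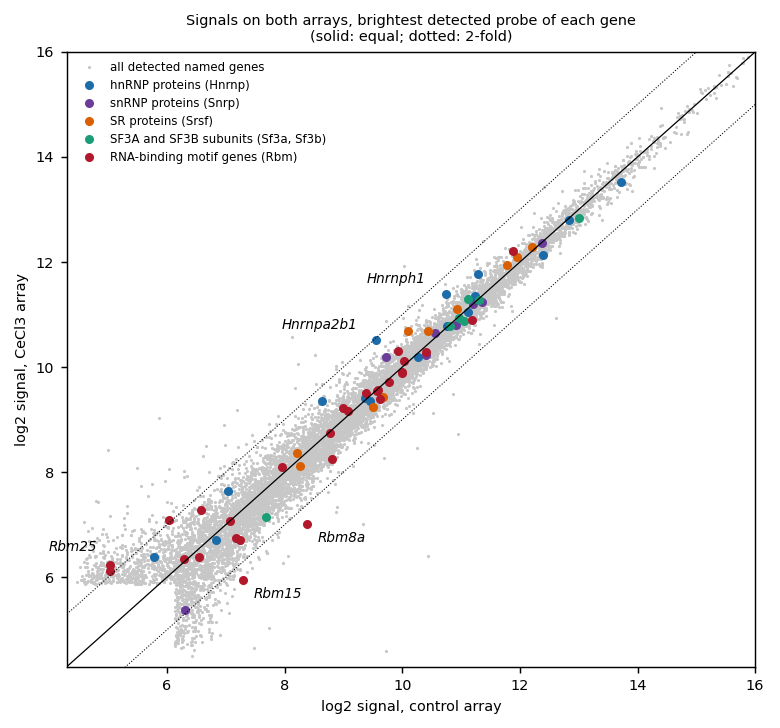
Log2 signal on the control array (x axis) and on the CeCl3 array (y axis) for the brightest detected probe of each gene, with all 10416 detected named genes in grey and the 69 genes of the set in colour by prefix. The solid line marks equal signals and the dotted lines 2-fold; Rbm8a and Rbm15 lie below the lower dotted line, and Rbm25 lies among probes that were dim on the control array.

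Probes of a gene share the RNA and the arrays and are no replicates of a condition, but they show how far values differ between stretches of a transcript. Of the 69 genes 37 had at least 2 detected probes. The 2 brightest probes pointed the same way in 23 of them (62.2%), against 55.3% of 3652 named genes, and all detected probes did in 19 (51.4%), against 47.1%. The median gap between the highest and lowest probe was 0.34, against 0.38. Rbm8a, Rbm6, Srsf6, Srsf1, Srsf5 and Rbm48 were among the genes whose detected probes shared a direction, while Hnrnph1, Srsf11, Rbm12 and Sf3b6 were not.

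**Figure D3:**
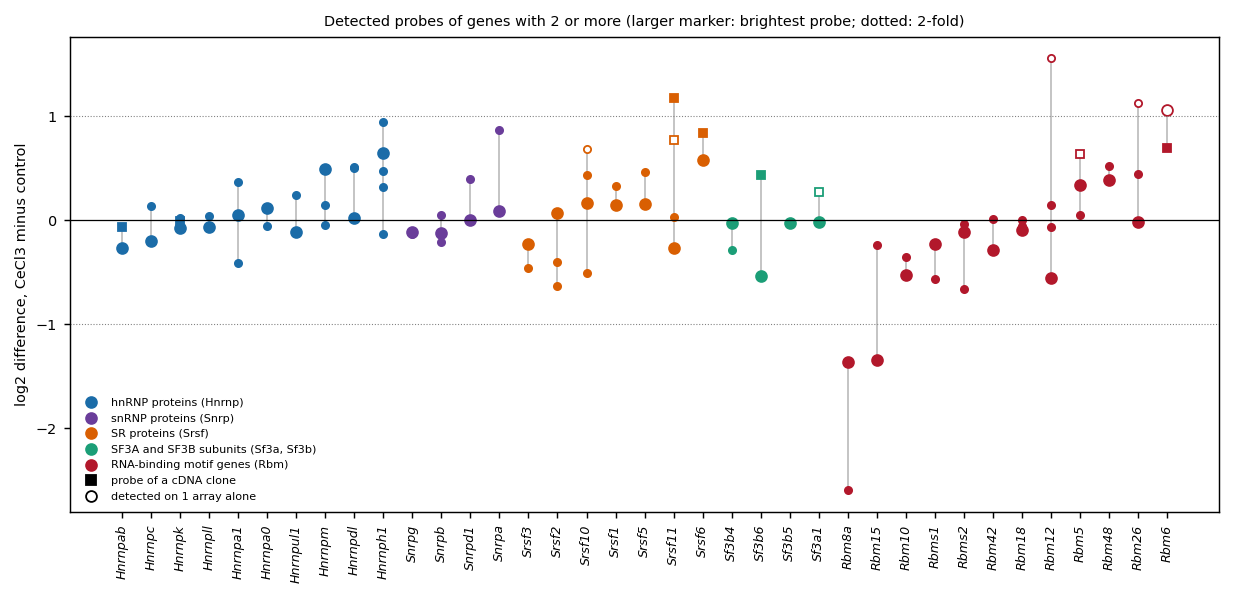
Log2 difference between the CeCl3 and the control array (y axis) for every detected probe of the 37 genes with 2 or more, 1 column per gene, coloured by prefix. Larger markers are the brightest probe, squares are probes of cDNA clones, open markers were detected on 1 array alone and dotted lines mark 2-fold. Both Rbm8a probes lie below the lower line (-1.37 and -2.60). The squares of Srsf11, Srsf6 and Sf3b6 lie above the RefSeq probes of the same gene, while that of Rbm6 lies below and that of Hnrnpk between them.

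Among detected probes, those designed on cDNA clones stood higher than RefSeq probes. Of 23 clone probes in the set 9 were detected, 7 of them above 0, with a median of 0.64, while the 115 detected RefSeq probes had a median of 0.00 with 59 above 0 and 56 below. The same held for all named probes, where 904 detected clone probes had a median of 0.31 and 14407 RefSeq probes -0.04. Probes detected with CeCl3 alone pass the filter through the array where they are high. Among the 9 clone probes 3 were such and 0 were detected in the control alone, against 7 and 1 of the 115 RefSeq probes. Over all named probes these were 234 and 29 of the 904, and 1035 and 531 of the 14407. The part of the filter in these medians was not tested. Every gene of the set but Hnrnpr, whose probe has no accession in the annotation, was represented by a RefSeq probe, so the gene values above are not those of clones.

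Other splicing and nuclear RNA genes, taken from 4 lists that do not use the prefixes, leaned to the CeCl3 array. Of 155 listed genes with a probe 133 were detected, 78 above and 55 below 0, with a median of 0.04. Of all detected named genes 4592 lay above and 5810 below 0, with a median of -0.04. Among the 129 detected on both arrays 22 had a bead interval above 0 (17.1%, against 8.53%) and 10 below 0 (7.75%, against 13.9%). At 1.5-fold 10 were higher (7.75%, against 2.99%) and 2 lower (1.55%, against 3.6%). The lists were written with earlier results of these data known, and no test of the lean was made.

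The lean was widest for SR-related proteins and the kinases that phosphorylate SR proteins, with a median of 0.10 over 26 genes. Of the 25 detected on both arrays 9 had an interval above 0 (36.0%, against 8.53% of all) and 2 below (against 13.9% of all). Within 1.2-fold lay 13 of these 25 genes (52%, against 67.2% of all). Srrm2, a scaffold of nuclear speckles, had 10.26 on the CeCl3 and 9.52 on the control array (0.74, 0.33 to 1.16), and a dimmer probe that passed detection with CeCl3 alone was at least 1.13-fold higher. Tra2b, an SR-like exon activator, had 8.80 against 8.16 (0.64, 0.27 to 1.00). The U1-associated Luc7l2 was higher on both detected probes, at 0.80 (0.41 to 1.18) and 1.08 (0.60 to 1.57). Clasrp, which binds the kinase Clk4, lay at 0.86 (0.28 to 1.45). The kinases did not share a direction: Clk1 lay at 0.47 (0.24 to 0.69), Clk4 at 0.44 (0.17 to 0.71), Clk3 at 0.02 (-0.25 to 0.29) and Clk2 at -0.21 (-0.54 to 0.11). Of the other kinase family Srpk1 lay at 0.28 (0.01 to 0.54), Srpk2 at -0.04 (-0.35 to 0.27) and the muscle-enriched Srpk3 at 0.59 (-0.03 to 1.21). Scaf11 went the other way at -0.77 (-1.12 to -0.41), with 0.07 (-0.48 to 0.62) on its second probe.

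In the list of spliceosome proteins the median over 49 genes was 0.02, and 2 genes detected on both arrays, Snrnp70 and Aqr, were at least 2-fold higher and 0 lower (against 0.982% of all in either direction). Of the 48 detected on both arrays, 37 lay within 1.2-fold (77.1%, against 67.2% of such named genes). Snrnp70, the U1 protein that SR proteins contact, had 8.91 on the CeCl3 and 7.73 on the control array (1.18, 0.68 to 1.68), with 0.69 (0.26 to 1.13) on a clone probe. Prpf38b lay at 0.98 (0.26 to 1.70), the helicase-like Aqr at 1.06 (0.60 to 1.53) on a clone probe, its only detected one, and Snrnp27, which passed detection with CeCl3 alone, was at least 1.08-fold higher. Of 9 helicases 8 were detected on both arrays and all 8 lay within 1.2-fold, against 67.2% of such named genes. The remaining helicase, Dhx9, which unwinds double-stranded RNA, passed detection with CeCl3 alone at 7.36 against 5.31, at least 2.33-fold higher.

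The 49 other nuclear RNA-binding regulators had a median of 0.01. Of the 48 detected on both arrays, 39 lay within 1.2-fold (81.25%, against 67.2% of such named genes). Sfpq, a paraspeckle protein needed for long neuronal transcripts, had 9.60 on the CeCl3 and 8.17 on the control array (1.42, 1.10 to 1.75) on its only detected probe, which has no accession in the annotation. Tia1, a component of stress granules, was higher on all 4 detected probes, from 0.23 (-0.05 to 0.51) to 1.04 (0.61 to 1.47). The neuronal regulator Ptbp2 passed detection with CeCl3 alone, by a clone probe, and was at least 1.61-fold higher. Nova2, another neuronal regulator, had 6.24 against 7.20 (-0.96, -1.57 to -0.34) and was the only gene of this list at least 1.5-fold lower.

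**Figure D4:**
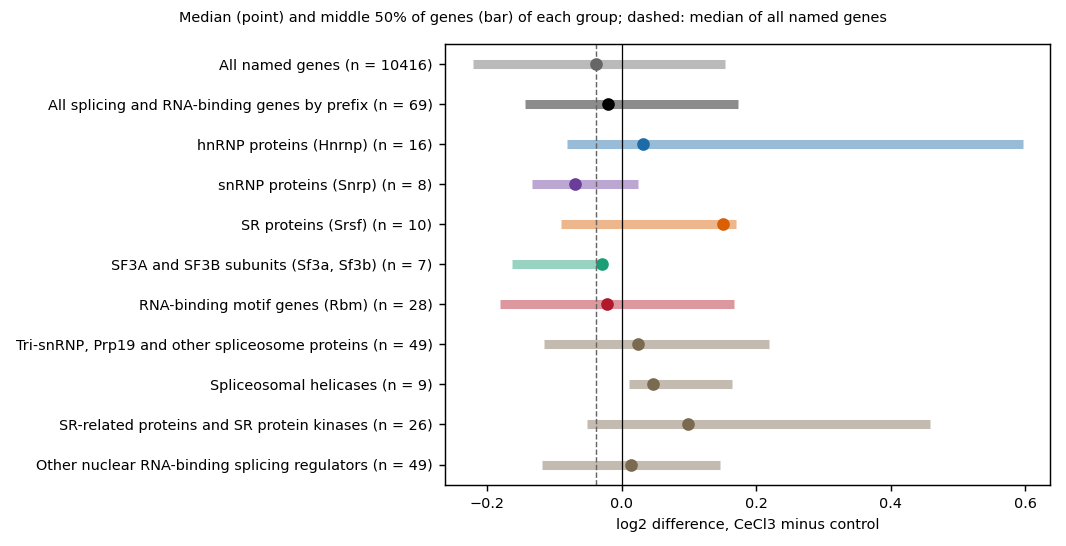
Median log2 difference between the CeCl3 and the control array (points) and the middle 50% of genes (bars) for all named genes, the genes chosen by prefix, each prefix group and the 4 lists of other splicing genes, with the number of detected genes. All medians lie between -0.07 for Snrp genes and 0.15 for Srsf genes, and the bars of the hnRNP genes and of the SR-related list reach farthest to the right.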

How the data were processed

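Hippocampal RNA was measured on 2 Illumina bead arrays, 1 labelled CeCl3 and 1 control. Per the file headers, each probe in the table deposited by the authors has a mean intensity, a bead standard error, a bead count and a detection p-value. Members' probes had 21 to 63 beads per array. Its intensity values lie below 0 for 27.1% of probes on each array and have nearly equal quantiles (ratio of 75th percentiles 0.998), so they appear background-subtracted and scaled between arrays. The series matrix intensity values, deposited by the authors too, rank probes alike but are unscaled (ratio 1.28). The submitters' processing notes name BeadStudio; its version and settings are not stated.

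Signals were corrected with normexp (limma 3.58.1 in R 4.3.3, controls inferred from detection p-values, offset 16), then quantile normalized and log2 transformed, where the offset shrinks differences of dim probes. Bead standard errors were divided by the corrected signal, and the interval spans 1.96 of them on either side. Where 1 array alone detected a probe, the fold is a bound against the higher of the dim probe's signal and the lowest detected log2 signal of that array (5.87 CeCl3, 6.14 control), and none is given under 1; the bound leaves out bead error. Medians, probe gaps and counts use the measured values, also of probes undetected on 1 array. With such members at their bound the median stayed -0.02. Of all probes 34885 have 1 symbol, 18 have several and 10378 are unnamed here. All 90 members matched a RefSeq gene by number, and 77 had a promoter entry. The processing was checked on simulated data.

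The members and lists were chosen with earlier results of these data known. Named genes were those past 2-fold on any detected probe, the 4 largest differences in each direction per prefix, those with a bound of 1.5-fold, the 3 with the widest probe gap, and a fixed set of 53 known splicing genes, of which 5 (Snrpa1, Snrpc, Snrpn, Srsf7, Rbm17) have no probe named here. Listed genes were named past 1.5-fold. Others were added for completeness after their values were seen. Neither array replicates a group, and the labels do not say whether animals were pooled.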

Additional observations from a re-analysis of the deposited data

How the results depend on the processing

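No paired analysis was possible because each group has 1 array. Counts past 1.5-fold, medians and the differences of 68 named genes were recomputed under 10 alternatives, some of which give no value for a few genes. Bead-interval, probe and promoter counts, and genes added for completeness, were not recomputed. The median of the members relative to all genes (0.02) and those of the 5 prefix groups moved by less than 0.1 under each of the 10. With an offset of 1, and with no filter on dim probes, 5 members were at least 1.5-fold lower in place of 3 (against 7.53% and 6.49% of all genes). Members at least 1.5-fold higher numbered 9 in the main setting and 6 with an offset of 50 (against 4.28% of all), where Hnrnpf lay at 0.49. They numbered 11 with detection p under 0.05 (against 8.39%) and 11 with no filter (against 5.34%), and 13 in the series matrix (against 14.0%). Of the other splicing genes, 14 were 1.5-fold higher and 2 lower (against 6.61% and 6.12% of all genes). In the series matrix these were 24 and 1 of 133 (against 14.0% and 2.43%). With detection p under 0.05, 4 of 138 were lower (against 8.28%), and with no filter 5 of 155 (against 6.49%). Acin1 turned to -0.37 under both of the last settings, because a brighter probe, undetected at 0.01, then stood for it. The limit of 1.2-fold for little difference was chosen after seeing the data; under 5/4-fold, used first, 48 members in place of 45 were within it. Rbm8a ranged from -2.19 to -1.19, Rbm15 from -1.61 to -0.79, Hnrnpa2b1 from 0.93 to 1.26 and Hnrnph1 from 0.45 to 0.91. With the mean over detected probes, 10 named genes left their bead interval, among them Rbm8a (-1.98), Rbm12 (0.27) and Srsf11 (0.43). Rbm15, Rbm25 and Rbm41 rest on dim probes with wide bead intervals, and the second probe of Rbm8a was dim on the CeCl3 array.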
